A study of Mus musculus with 2 samples.

Results

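The scavenger receptors and the mannose receptor described here are the 10 genes Cd36, Msr1, Marco, Mrc1, Cd163, Stab1, Olr1, Scarb1, Colec12 and Cd68, taken by symbol from the 34745 genes for which reads were deposited, each symbol matching 1 gene. They were measured in mRNA of monocytic myeloid-derived suppressor cells (M-MDSCs), immature suppressive myeloid cells grown from mouse bone marrow and sorted as CD11b+Ly6G-Ly6Chigh cells after 7 days. CHBP- M-MDSC received the growth factor GM-CSF, and CHBP+ M-MDSC received GM-CSF together with CHBP, a cyclic peptide derived from erythropoietin. The labels name no transgene and give the strain as C57BL/6 for CHBP- M-MDSC and as C57BL/7 for CHBP+ M-MDSC, while the study's methods name C57BL/6. Each condition is 1 library, so that no spread between replicates exists, and an effect of CHBP cannot be told apart from other differences of the 2 libraries. The number of mice behind a library and the CHBP dose are not given in the labels. The study's methods name a culture dose in μM and its results doses in nM, without saying which the sequenced cells received.

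Scavenger receptors are membrane proteins that bind modified lipoproteins, polyanions, dying cells, microbes or haemoglobin complexes and carry them into the cell. They are grouped into classes by protein architecture, not by common descent, so that members of different classes can share ligands without sharing sequence. In the monocyte and macrophage lineage they mark phagocytic cells, and several of them are used as markers of macrophages that take up lipid or respond to interleukin 4. Mrc1 encodes the mannose receptor CD206, an endocytic C-type lectin.

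Of the 10 genes, 7 had 1 FPKM or more in either library. The mRNA of 5 of these 7 was higher in CHBP+ M-MDSC by more than the counting error of the reads. The same held for 27.9% of all genes of 1 FPKM or more in either library. The 5 receptors were Mrc1, Olr1, Msr1, Cd36 and Stab1, with ratios of FPKM + 1 from 1.16 to 1.40. Log2 ratios rose with gene length in this pair of libraries, and with that trend removed Stab1, the longest of the receptors, went from 0.21 to -0.03. By the ratio of FPKM + 1, no receptor reached 1.5-fold in either direction. Past it, 3.42% of all genes of 1 FPKM or more were higher and 2.89% lower. The study's methods pair that fold with a P value, which was not computed here. By reads alone, Marco and Cd163 had ratios of 0.552 and 0.644, more than 1.5-fold lower, with intervals that include equal levels. For Cd68 and Scarb1 the ratios were 1.01 and 0.990. Marco, Colec12 and Cd163 had at most 33 reads in a library, too few to place them above or below. Levels spanned a wide range, from 284 FPKM for Cd68 to 0.0959 FPKM for Cd163 in CHBP- M-MDSC.

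FPKM is reads divided by gene length and by the total of counted reads. The totals were 16484504 reads in CHBP- and 16280466 reads in CHBP+ M-MDSC. The log2 ratio divides FPKM + 1 of CHBP+ M-MDSC by FPKM + 1 of CHBP- M-MDSC, and the added 1 understates differences of low genes. Intervals are exact 95% intervals for counting error only (Clopper-Pearson for a ratio of reads, Poisson for a level), and PCR copies make reads less independent than they assume. A gene was kept for counts where either library had 1 FPKM or more, which left 10948 genes and 7 of the 10 receptors. Of the receptors not kept, Marco was the nearest to the minimum with 0.994 FPKM in CHBP- M-MDSC, and Stab1 was the lowest of those kept.

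Upstream sequence is shown for Mrc1 and Olr1, which had the highest log2 ratios, and for Cd68, the most abundant receptor, whose level was nearly equal in both libraries. The sequences are the 250 bases before the RefSeq start of each gene on GRCm38.p6, written 5′ to 3′ on the gene's strand. Capitals mark GAGGAA or its reverse complement TTCCTC, the core bound by the myeloid factor PU.1. Mrc1 is at chr2:14229164-14229413 (+ strand), Olr1 at chr6:129507166-129507415 (- strand) and Cd68 at chr11:69666171-69666420 (- strand).
Mrc1: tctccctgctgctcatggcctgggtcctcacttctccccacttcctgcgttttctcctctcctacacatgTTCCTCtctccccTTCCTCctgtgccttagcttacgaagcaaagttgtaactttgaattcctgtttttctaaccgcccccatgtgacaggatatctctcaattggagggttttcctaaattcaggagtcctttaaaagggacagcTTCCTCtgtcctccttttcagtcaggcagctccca
Olr1: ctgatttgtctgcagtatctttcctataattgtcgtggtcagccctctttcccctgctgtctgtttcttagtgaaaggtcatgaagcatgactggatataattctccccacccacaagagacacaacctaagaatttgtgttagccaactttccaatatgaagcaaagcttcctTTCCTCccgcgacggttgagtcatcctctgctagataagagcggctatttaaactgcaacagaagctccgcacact
Cd68: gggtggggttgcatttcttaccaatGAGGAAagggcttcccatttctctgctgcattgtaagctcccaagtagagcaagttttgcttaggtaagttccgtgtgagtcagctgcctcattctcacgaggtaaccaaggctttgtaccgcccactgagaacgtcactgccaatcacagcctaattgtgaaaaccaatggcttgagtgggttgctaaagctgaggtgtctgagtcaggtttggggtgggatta

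The core was found 3 times before Mrc1, at positions -180, -167 and -35 from the start, once before Olr1 at -76 and once before Cd68 at -225. RefSeq upstream sequence was given for 7 of the receptors, those other than Msr1, Scarb1 and Colec12, and 5 of the 7 held the core (the 3 above, Marco and Stab1). Of all 32851 upstream sequences of this length, 23.3% held it on either strand. The letters TGANTCA, bound by AP-1 factors, were found in Olr1 (-60) and Cd68 (-149 and -24), and in 6.75% of all sequences. CCAAT was found on either strand in 6 of the 7, all but Marco, against 33.8% of all sequences, and TATAAA in none of the 7, against 12.4%. In Cd68, the stretches of CCAAT at -84 and -60 lie between the AP-1 letters. No match overlaps one of another motif. A match describes letters only and is not a binding site.

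Class A receptors are trimers with a collagen-like stalk. Msr1 (SR-A, the macrophage scavenger receptor for acetylated lipoprotein, ENSMUSG00000025044, chromosome 8, 39581700 to 39642678) had 9516 reads in CHBP- and 11206 in CHBP+ M-MDSC (144 and 172 FPKM). Its level was thus 27.8 FPKM higher in CHBP+ M-MDSC, the largest difference in FPKM among the receptors. The log2 ratio was 0.25, and the reads alone gave 0.25 with an interval from 0.21 to 0.29. Msr1 ranked 293 of the genes kept in CHBP- and 200 in CHBP+ M-MDSC.

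The other class A receptors were low. Marco (a receptor for bacteria and particles on some tissue macrophages, ENSMUSG00000026390, chromosome 1, 120474538 to 120505024) had 33 and 18 reads, or 0.994 and 0.549 FPKM. It was the receptor with the lowest log2 ratio, -0.36, and its reads gave -0.86 with an interval from -1.77 to 0.01, which includes equal levels. Colec12 (a collectin that binds microbial sugars, mostly known from endothelial cells, ENSMUSG00000036103, chromosome 18, 9707648 to 9877995) had 24 and 30 reads, or 0.438 and 0.555 FPKM. Its reads gave a log2 ratio of 0.34 with an interval from -0.48 to 1.18. A difference in Marco or Colec12 was not detectable at this depth. Within class A, Msr1 therefore held nearly all of the mRNA in both libraries.

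Class B receptors are loops anchored in the membrane at both ends. Cd36 (uptake of oxidized lipoprotein and long-chain fatty acids, ENSMUSG00000002944, chromosome 5, 17781690 to 17888801) had 904 reads in CHBP- and 1086 in CHBP+ M-MDSC (6.57 and 7.99 FPKM). The log2 ratio was 0.25, and the reads gave 0.28 with an interval from 0.15 to 0.41. Scarb1 (SR-B1, the receptor for high-density lipoprotein, ENSMUSG00000037936, chromosome 5, 125277087 to 125341094) had 1495 and 1460 reads (7.38 and 7.30 FPKM). Its log2 ratio of -0.01 had an interval of reads from -0.12 to 0.09, which includes equal levels. The order of the pair differed between the libraries, but in CHBP+ M-MDSC the counting intervals of their levels overlapped. The FPKM of Cd36 was 0.890 of that of Scarb1 in CHBP- and 1.09 of it in CHBP+ M-MDSC. That ratio does not depend on the scaling between libraries, and it was 1.23 times as high in CHBP+ M-MDSC (95% interval of the odds ratio of reads from 1.10 to 1.38, for counting error). It still holds the trend of log2 ratio with gene length. With that trend removed the log2 ratios were 0.16 for Cd36 and -0.19 for Scarb1.

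Cd68 (class D, a heavily glycosylated protein of late endosomes and lysosomes, used as a pan-macrophage marker, ENSMUSG00000018774, chromosome 11, 69664213 to 69666153) was the most abundant receptor. It had 9683 and 9633 reads, or 284 and 286 FPKM, and ranked 139 and 119 among the genes kept. The log2 ratio was 0.01, and the interval of its reads, from -0.03 to 0.05, includes equal levels. Cd68 and Msr1 together made up 86.2% of the summed FPKM of the 10 receptors in CHBP- and 84.0% in CHBP+ M-MDSC.

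The receptors with the highest log2 ratios were Mrc1 and Olr1, both C-type lectins. Mrc1 (endocytosis of mannosylated glycoproteins, ENSMUSG00000026712, chromosome 2, 14229392 to 14332057) had 1002 reads in CHBP- and 1438 in CHBP+ M-MDSC (8.17 and 11.9 FPKM). This is a log2 ratio of 0.49, a ratio of 1.40, higher than that of 94.5% of the genes kept. Its reads gave 0.54 with an interval from 0.42 to 0.66, so that counting error alone left folds from 1.34 to 1.58 and reached past the 1.5-fold threshold. Olr1 (LOX-1, the lectin-like receptor for oxidized low-density lipoprotein, ENSMUSG00000030162, chromosome 6, 129485244 to 129507165) had 2985 and 3877 reads, or 43.4 and 57.1 FPKM. This is a log2 ratio of 0.39, and its reads gave 0.40 with an interval from 0.33 to 0.46. Against Cd68 in the same library, Mrc1 was 1.44 times as high in CHBP+ as in CHBP- M-MDSC (1.32 to 1.57) and Olr1 1.31 times (1.24 to 1.38). Msr1 was 1.18 times as high against Cd68 (1.14 to 1.23). Cd68 is the shortest receptor kept, at 2067 bases, and these ratios still hold the trend of log2 ratio with gene length. With that trend removed the gaps to Cd68 were smaller, with log2 ratios of 0.43 for Mrc1, 0.44 for Olr1, 0.31 for Msr1 and 0.17 for Cd68.

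The remaining receptors are known for clearance of the body's own ligands. Stab1 (class H, stabilin-1, which takes up altered matrix proteins and dying cells, ENSMUSG00000042286, chromosome 14, 31139013 to 31168641) had 453 reads in CHBP- and 558 in CHBP+ M-MDSC (1.71 and 2.14 FPKM). The log2 ratio was 0.21, and its reads gave 0.32 with an interval from 0.14 to 0.50. With the trend of log2 ratio with gene length removed (0.24 at the 16034 bases of Stab1), its value was -0.03. This is close to the median of all genes kept, -0.02, so that no difference from genes of its length remained. Its span shares 109 bases with Nt5dc2, which had 977 and 807 reads, and how the counting divided reads there was not tested. Cd163 (class I, the receptor for haemoglobin bound to haptoglobin, ENSMUSG00000008845, chromosome 6, 124304656 to 124330527) was nearly absent, with 11 and 7 reads, or 0.0959 and 0.0618 FPKM. The interval of its reads, from -2.24 to 0.86, allows a higher or a lower level. The other receptors overlap no gene with reads at the deposited coordinates.

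**Figure D1:**
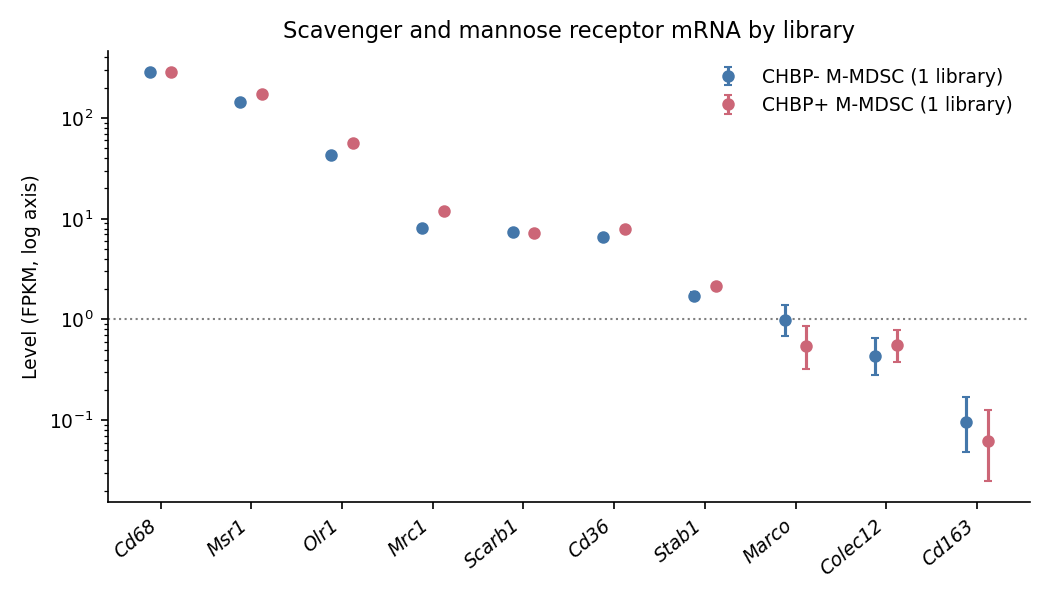
FPKM (log axis) of each receptor in the CHBP- (blue) and the CHBP+ (red) M-MDSC library, 1 point per library, with bars for exact 95% Poisson intervals of the reads and a dotted line at 1 FPKM. Cd68 and Msr1 lie above 100 FPKM in both libraries, and Marco, Colec12 and Cd163 lie below the line in both.

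By FPKM, the order in CHBP- M-MDSC was Cd68, Msr1, Olr1, Mrc1, Scarb1, Cd36, Stab1, Marco, Colec12 and Cd163. The intervals of Mrc1 (8.17 FPKM) and Scarb1 (7.38 FPKM) overlapped, and no other neighbours overlapped. In CHBP+ M-MDSC Cd36 stood before Scarb1 and Colec12 before Marco, and the intervals of both these pairs overlapped, while Mrc1 stood apart from Cd36 at 1.49 times its level. The summed level of the 10 receptors was 497 FPKM in CHBP- and 546 FPKM in CHBP+ M-MDSC, 1.10 times as high. In RNA of sorted bulk cells, fewer cells of a type and less RNA per cell cannot be told apart.

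Of the 7 receptors kept, 0 were at least 1.5-fold higher and 0 at least 1.5-fold lower, against 3.42% and 2.89% of all genes kept. The log2 ratio was above 0 in 6 of the 7, against 46.3% of all genes. The interval of the reads lay above 0 for 5 of the 7, against 27.9% of all genes, and below 0 for 0 of the 7, against 31.0%. The median log2 ratio of the 7 was 0.25, and that of all genes kept was -0.03. These are descriptions of 2 libraries. The 7 genes were chosen by name, with earlier results of these data known, and no test was made of the difference between the shares.

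**Figure D2:**
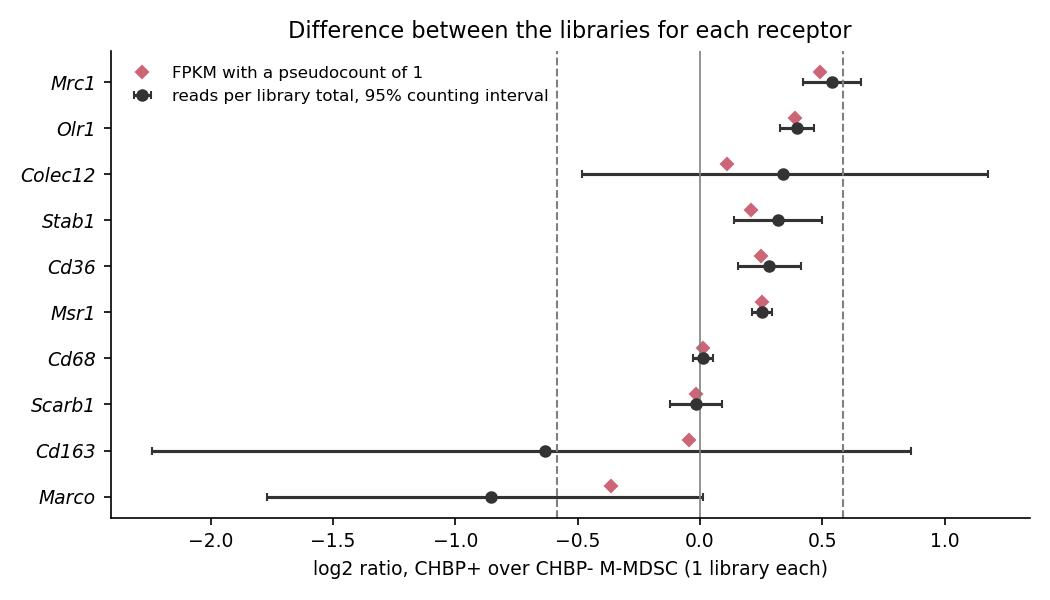
log2 ratio of CHBP+ over CHBP- M-MDSC for each receptor, from reads per library total with 95% Clopper-Pearson intervals (black) and from FPKM with a pseudocount of 1 (red), with dashed lines at 1.5-fold. The intervals of Mrc1, Olr1, Stab1, Cd36 and Msr1 lie above 0, that of Mrc1 crosses the upper dashed line, and those of the other 5 receptors include 0.

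The log2 ratio moved with gene length in these libraries, and the receptors differ in length. Across the genes kept, which share 2 libraries and are not independent, Spearman's rho of log2 ratio and the length implied by count and FPKM was 0.478. With the genes split by length into 10 groups of nearly equal size, the group of the shortest genes had a median of -0.30 and that of the longest one of 0.23. Receptor lengths ran from 2013 bases for Marco to 16034 for Stab1. A cubic trend with length, subtracted from the log2 ratio, placed each receptor against genes of its own length. Msr1 (3998 bases) then had 0.31, Olr1 (4171 bases) 0.44, Mrc1 (7443 bases) 0.43 and Cd36 (8348 bases) 0.16. Cd68 (2067 bases) moved from 0.01 to 0.17 and Scarb1 (12284 bases) from -0.01 to -0.19. Stab1 went from 0.21 to -0.03, close to the trend. Thus 5 of the 7 were above the trend, against 47.1% of all genes, and Mrc1 and Olr1 stood higher than 94.2% and 94.5% of the genes kept. The part of length in the differences of single receptors was not tested. The SD of single genes around the trend was 0.303, which is larger than the values of Cd36, Cd68, Scarb1 and Stab1.

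**Figure D3:**
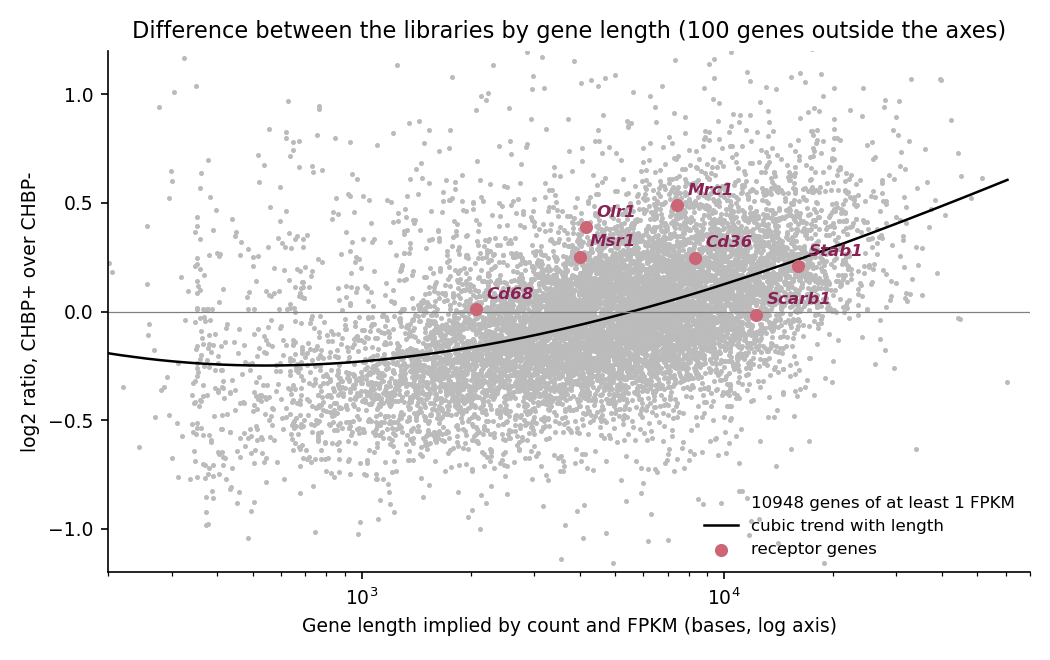
log2 ratio of CHBP+ over CHBP- M-MDSC against gene length (bases, log axis) for the 10948 genes kept (grey), with the cubic trend (line) and the 7 receptors kept (red). 100 genes lie outside the axes. Mrc1, Olr1, Msr1, Cd36 and Cd68 lie above the line, Stab1 close to it and Scarb1 below it.

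Of 14 other scavenger receptors, 6 were kept, with a median log2 ratio of 0.01 against -0.03 over all genes kept. Lrp1, a large endocytic receptor for lipoproteins and haemopexin complexes, was at least 1.5-fold higher, with 4444 reads in CHBP- and 7833 in CHBP+ M-MDSC (12.9 and 23.0 FPKM, log2 ratio 0.79). Lrp1 is also long, and with the length trend removed its value was 0.48, under 1.5-fold. Cd14, the co-receptor for lipopolysaccharide, had 206 and 179 FPKM, and Scarb2, a class B relative of lysosomes, 19.1 and 19.3 FPKM. Scara5 and Ssc5d had no reads in either library.

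Among 9 genes of the mannose receptor family and neighbouring endocytic lectins, 5 were kept, none past 1.5-fold, with a median log2 ratio of -0.18. With the length trend removed the median was -0.05, against -0.02 over all genes kept. Lgals3, which encodes galectin-3, had 964 and 809.5 FPKM, and Mgl2, a galactose-binding lectin, 160 and 164 FPKM. Reads of Mgl2 can be shared with its close paralog Clec10a. The nearest relatives of Mrc1, named after their values were seen, were Ly75, with 4.34 and 5.80 FPKM and a log2 ratio of 0.35, and Mrc2 and Pla2r1, each with at most 7 reads in a library. Cd209b had no reads.

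The genes for handling of lipoprotein and lipid were mostly present. Of 12 genes, 11 were kept, with a median log2 ratio of 0.12. Abca1, which exports cholesterol, was at least 1.5-fold higher, with 1392 and 2450 reads (7.99 and 14.2 FPKM, log2 ratio 0.76, and 0.62 with the length trend removed). The most abundant were Lpl, the lipoprotein lipase, with 243 and 258 FPKM, and Lipa, the lysosomal acid lipase, with 98.9 and 117 FPKM. Pparg and Nr1h3, lipid-sensing nuclear receptors that are known to act on Cd36 and Abca1 and were named after their values were seen, had 1.10 and 1.38 FPKM and 0.855 and 0.723 FPKM.

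All 10 co-receptors and signalling partners of CD36 were kept, with a median log2 ratio of 0.03. Tlr4 and Itga6 were at least 1.5-fold higher. Tlr4, which pairs with TLR6 and CD36 in the response to oxidized lipoprotein, had 4.99 and 40.4 FPKM, a log2 ratio of 2.79. Itga6, an integrin subunit, had 3.90 and 6.43 FPKM (log2 ratio 0.60, and 0.43 with the trend removed, which is under 1.5-fold). The most abundant partners differed less: Cd9 had 328 and 296 FPKM and Tlr2 154 and 158 FPKM. Tlr6 had 9.75 and 9.94 FPKM, named after its values were seen.

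Of 10 genes for haemoglobin and haem handling, the path that CD163 feeds, 9 were kept, with a median log2 ratio of -0.17. The interval of the reads lay below 0 for 7 of the 9, against 31.0% of all genes kept. This list, too, was chosen with earlier results of these data known, and the shares were not tested. The ferritin chains made up most of the summed FPKM, with Fth1 at 13195 and 9707 FPKM and Ftl1 at 1674 and 1219 FPKM, neither at least 1.5-fold lower. Lrp1, which this list also holds, was the 1 gene past 1.5-fold. With the length trend removed 0 genes of the list were past it, and the median was -0.06. Hpx, haemopexin, was not kept, with 6 and 7 reads. Ferritin has many processed copies in the genome, so that its counts are uncertain.

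For uptake of apoptotic cells, 10 of 15 genes were kept, with a median log2 ratio of 0.17. Itgav, the integrin subunit that binds dying cells through the bridging protein MFG-E8, was at least 1.5-fold higher, with 337 and 646 reads (1.48 and 2.88 FPKM, log2 ratio 0.64, and 0.44 with the trend removed, under 1.5-fold). Rac1, a GTPase of engulfment, had 61.4 and 55.2 FPKM, and Itgb5 14.0 FPKM in both libraries.

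Of 14 alternatively activated macrophage genes, a set that CD206 is often used with as a marker, 13 were kept, with a median log2 ratio of 0.01, or 0.18 with the length trend removed. Egr2, a transcription factor, was at least 1.5-fold higher, with 545 and 2035 reads (6.09 and 23.0 FPKM, log2 ratio 1.76) and a like value with the trend removed (1.77). No other listed gene overlaps Egr2. Chil3 had 530 and 546 FPKM and Arg1, arginase-1, 400 and 401 FPKM. None of the 12 others was past 1.5-fold.

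Of 13 transcription factors known for scavenger receptor genes, 12 were kept and none was past 1.5-fold, with a median log2 ratio of -0.02. Nfe2l2, the oxidative stress factor NRF2, had 92.4 and 91.2 FPKM. Spi1, which encodes PU.1, had 85.7 and 72.0 FPKM.

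**Figure D4:**
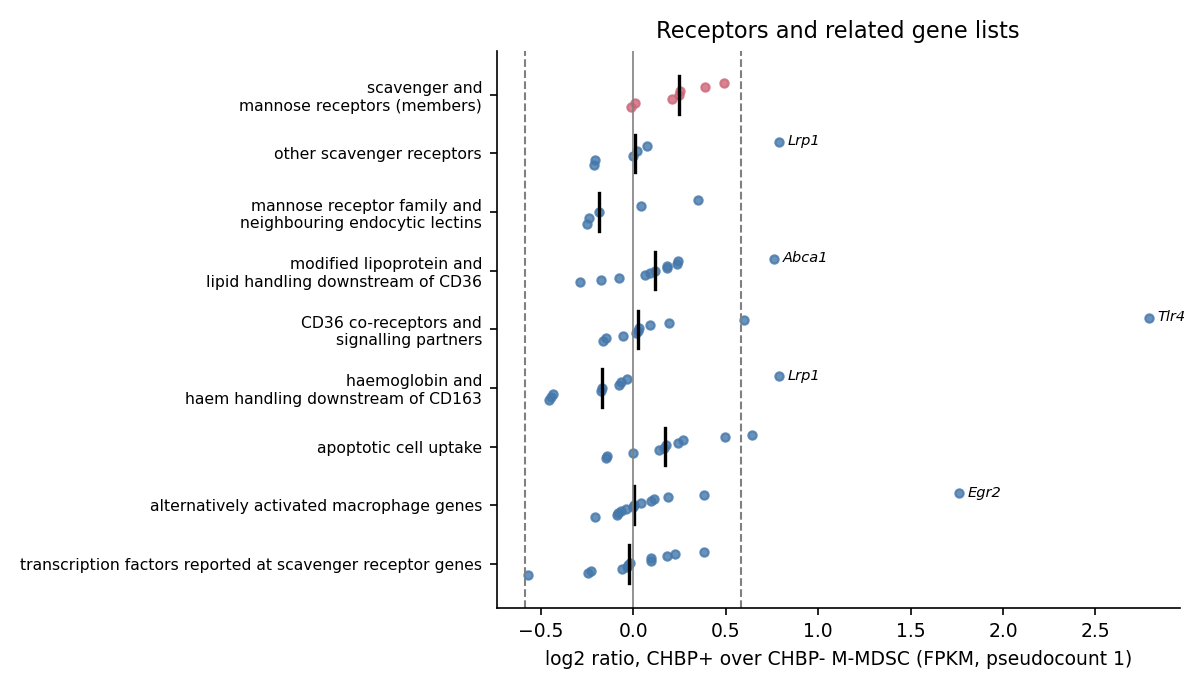
log2 ratio (FPKM, pseudocount 1) of the genes kept in the receptor list (red) and in 8 related lists (blue), 1 point per gene, with black bars at the medians and dashed lines at 1.5-fold. The receptor list has its median at 0.25 with no point past the dashed lines, and Tlr4 (2.79) and Egr2 (1.76) lie farthest to the right.

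Markers of the sorted cells and of other cells were set beside these values. The monocyte and macrophage list of 12 genes summed to 10585 and 8771 FPKM, most of it Lyz2 (9756 and 7830 FPKM). Of its 13 entries the interval of the reads lay above 0 for 5 (both entries of Itgam, Csf1r, Adgre1 and Ccr2), below 0 for 5 (Lyz2, Ly6c2, Cd14, Fcgr1 and C1qa) and included 0 for 3. Ly6c2, a gate marker, had 56.9 and 34.0 FPKM, and Ly6g, which the gate excludes, 2.19 and 2.12 FPKM. Itgam (CD11b) is listed as 2 overlapping entries, with 157 and 232 FPKM and 99.99 and 153 FPKM. The summed FPKM of 12 neutrophil markers went from 3363 to 3045, of 11 dendritic cell markers from 248 to 257, of 10 mast cell and basophil markers from 301 to 248, of 7 eosinophil markers from 140 to 105 and of 11 erythroid and megakaryocyte markers from 1667 to 905. Within the neutrophil, the dendritic cell and the mast cell and basophil lists single markers went opposite ways. Mmp8 had 1290 and 1546 FPKM and S100a9 1269 and 937 FPKM. Itgax had 107 and 142 FPKM and H2-Ab1 104 and 81.4 FPKM. Ms4a2 had 2.46 and 6.11 FPKM and Mcpt8 46.1 and 29.9 FPKM. In the erythroid and megakaryocyte list Hbb-bs had 708 and 212 FPKM, and Hbb-bt and Hba-a2 were also at least 1.5-fold lower. With the length trend removed only Hbb-bs of that list, at a log2 ratio of -1.55, was past 1.5-fold. Of the markers kept, the interval of the reads lay above 0 for 1 of 12 neutrophil and 2 of 7 dendritic cell markers. It also did so for 2 of 7 mast cell and basophil markers, against 27.9% of all genes kept. It lay below 0 for 6, 2 and 4 markers of these lists, against 31.0%. In the erythroid and megakaryocyte list it lay above 0 for 1 and below 0 for 6 of the 9 markers kept. The eosinophil list had 0 above and 2 below of 5, the B cell list 1 and 3 of 5 and the T cell list 0 and 1 of 3. These shares were not tested. Endothelial cells and stroma carry Stab1, Colec12 and Scarb1 in tissues. The 8 endothelial markers summed to 21.8 and 23.6 FPKM, most of it Pecam1 (18.5 and 18.8 FPKM), which myeloid cells express as well. Kdr, the other endothelial marker kept, had 402 and 635 reads (2.53 and 4.05 FPKM, log2 ratio 0.52, with an interval of the reads from 0.50 to 0.86). Lyve1 had 1 and 11 reads, with an interval above 0, Cdh5, Tek, Stab2 and Emcn had 6 to 26 reads, each with an interval that includes 0, and Clec4g had none. The stromal list summed to 3.21 and 3.62 FPKM. The 8 T cell markers summed to 64.8 and 53.5 FPKM, most of it Thy1 (58.8 and 48.6 FPKM), with 3 kept. The 6 B cell markers summed to 41.7 and 28.4 FPKM, with 5 kept. Of 7 alveolar macrophage markers in the data, 4 were kept (summed FPKM of the list 735 and 731), Krt79 and Fabp1 had no reads, and Marco is itself one of them. The part of other cells in the receptor differences was not tested.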

How the data were processed

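mRNA of 1 CHBP- and 1 CHBP+ M-MDSC library was sequenced. Per the labels, the authors trimmed linker and low-quality bases with Seqtk and removed short and ribosomal reads. The study's methods name TopHat2, HT-seq and mm9, whereas the submitters' processing notes name HISAT2 2.0.4, Cufflinks 2.1.1, Cuffdiff and mm10/GRCm38. All 10 receptors overlapped their RefSeq gene on GRCm38 at the deposited coordinates. The deposited counts are raw reads per gene, and the deposited FPKM are these counts over gene length and library total. Strand and multi-mapping settings are not given in the sources used here.

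Samples were grouped by their titles. With 1 library per condition no model was fitted and no p-value computed. Named were the 10 receptors and, from each list, the 2 genes of highest mean FPKM, those past 1.5-fold and those without reads, with exceptions stated. Cell type markers were given as sums over the list, with single markers named after their values were seen. Receptors and lists were chosen with earlier results of these data known. A count of 0 allows 0.182 CPM in CHBP- and 0.184 CPM in CHBP+ M-MDSC (3 reads). Intervals and trend were tested on simulated Poisson reads, the model that the intervals assume. This checks the calculation only, and not how well that model holds for these libraries. Python 3.11.15, numpy 2.4.6, scipy 1.17.1, pandas 2.3.3, matplotlib 3.10.9 and edgeR 4.0.16 (R 4.3.3, scaling factors only) were used.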

Additional observations from a re-analysis of the deposited data

How the results depend on the processing

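The counts of receptors at least 1.5-fold higher and lower stayed at 0 with a pseudocount of 0.1, CPM, the median log2 ratio set to 0, trimmed mean of M values, the length trend removed, a threshold of 2, no filter and a minimum of 5 FPKM. Each setting was changed alone. With a pseudocount of 0.1, Marco had a log2 ratio of -0.75, past 1.5-fold lower, but the filter kept it out of that count. The median log2 ratio ran from 0.16 with no filter to 0.28 with a pseudocount of 0.1. With the length trend removed it was 0.17, and Stab1 went from 0.21 to -0.030, close to the trend. Msr1, Scarb1 and Cd68 also moved past their counting interval, to 0.31, -0.19 and 0.17. The cause of the trend was not tested. Under the other settings each of the 10 receptors stayed within its counting interval, although Scarb1 changed sign to 0.01 with the median set to 0. The trend could not be removed from Marco, Colec12 and Cd163, which are under 1 FPKM, and depth limits what can be said of them. No paired analysis was possible because each condition holds 1 library, and for that reason no replicate could be left out.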
